A study of Mus musculus with 12 samples.

Results

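The CD300 receptors are a family of cell-surface proteins with a single immunoglobulin-like domain, carried mostly by myeloid cells such as microglia, macrophages, monocytes and mast cells. The expression of 5 of them (Cd300a, Cd300e, Cd300lb, Cd300ld and Cd300lf) was followed in cultured mouse microglia given neurofilament light chain (NfL), a structural protein of axons. The annotation used (GENCODE M21, mouse build GRCm38) holds 12 genes whose symbol starts with Cd300, and the count table lists 52636 gene identifiers in all. The 5 genes were taken from that table by identifier, and all 5 passed the filter on low counts. They were chosen by their measured changes in these libraries, with the values of all 3 comparisons already known. Their changes are therefore given as a description, with errors and intervals but without p-values.

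Receptors of this family come in pairs that look alike outside the cell and differ inside it. Inhibitory members carry tyrosine motifs in a long tail, which recruit phosphatases such as Ptpn6 and Ptpn11. Activating members have a short tail and signal through adaptor proteins such as Tyrobp (DAP12) and Fcer1g (the Fc receptor gamma chain), and several members of both kinds bind lipids exposed on dying cells, among them phosphatidylserine and ceramide.

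The microglia came from the brains of wild-type C57BL/6 pups aged 1 to 2 days. They were shaken off mixed glial cultures and kept with CSF1, a growth factor for microglia. For 24 h they received 5 µg of full-length NfL (FL-NfL), 5 µg of its coiled-coil region alone (CC-NfL) or vehicle, and each of the 3 groups had 4 libraries. Every replicate number belonged to 1 labelled batch (b1 to b4) that held 1 library of each group. The labels do not say whether batches were separate litters or cultures, so p-values measure the spread between these libraries, which may be technical. Shaken-off neonatal cells are a culture model and can hold other glial or meningeal cells.

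The libraries held 20162427 to 31048044 counted reads each, and 14687 genes were tested. Levels are CPM (read counts scaled to the library total) after trimmed-mean scaling, given as mean ± SD over 4 libraries. Changes are log2 fold changes with their standard error (SE) from edgeR's quasi-likelihood fit of all 12 libraries. A change was called when its Benjamini-Hochberg adjusted p over all tested genes was under 0.05. In bulk RNA, fewer cells of a type and less RNA per cell cannot be told apart.

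FL-NfL went with a different mix of CD300 transcripts. The activating receptors Cd300e and Cd300ld were higher with FL-NfL than with vehicle. The inhibitory receptor Cd300a and the activating receptor Cd300lb were lower. These 4 of the 5 members were called, where 24.9% of all tested genes were called in that comparison (14.0% higher and 10.9% lower), and nothing is read from the count because the same comparison chose the genes. The differences of CC-NfL from vehicle were smaller in size for each of the 5, and none of the 5 was called. No gene of the whole table was called there either by edgeR (0%), although 1082 genes had an unadjusted p under 0.05 and DESeq2 called 23, Cd300e among them.

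**Figure D1:**
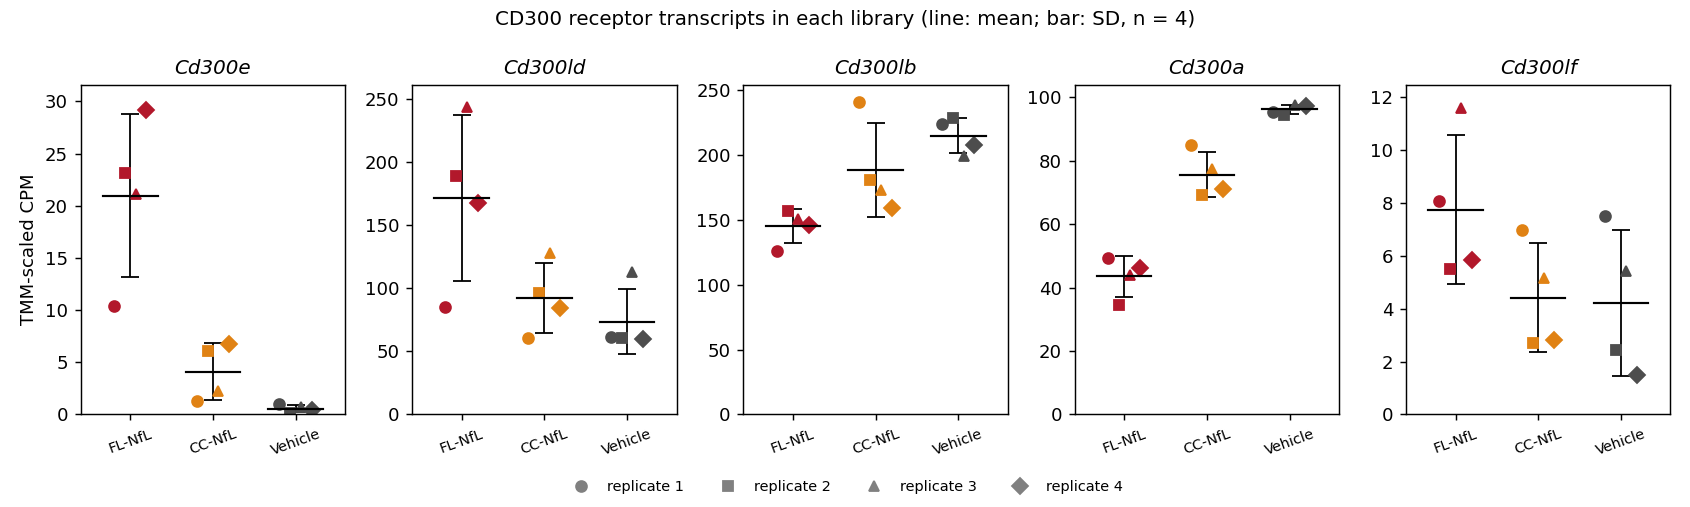
Level of each of the 5 CD300 receptors in every library, in TMM-scaled CPM on a linear axis of its own for each gene, with 1 point per library for FL-NfL, CC-NfL and vehicle, a line at the group mean and a bar of 1 SD each way. Cd300e lies at 10.4 to 29.2 CPM with FL-NfL and at 0.168 to 0.955 CPM with vehicle, whereas Cd300a lies at 34.6 to 49.3 CPM with FL-NfL and at 94.5 to 97.7 CPM with vehicle.

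The RefSeq promoter windows (GRCm38.p6, 250 bases before to 50 after the gene start) are shown for the members with the largest rise and the largest fall, Cd300e and Cd300a. They are also shown for Cd300ld and the similarly named Cd300ld4, which moved the same way. Windows existed for 10 of the 12 CD300 genes. Capitals mark matches, on either strand, to GAGGAA (ETS family with PU.1), TTGCNNAA (C/EBP), TTCNNNGAA (STAT) or the NF-kB motif. The motifs were chosen after the values were seen.
Cd300e, chr11:115061990-115062289, minus strand: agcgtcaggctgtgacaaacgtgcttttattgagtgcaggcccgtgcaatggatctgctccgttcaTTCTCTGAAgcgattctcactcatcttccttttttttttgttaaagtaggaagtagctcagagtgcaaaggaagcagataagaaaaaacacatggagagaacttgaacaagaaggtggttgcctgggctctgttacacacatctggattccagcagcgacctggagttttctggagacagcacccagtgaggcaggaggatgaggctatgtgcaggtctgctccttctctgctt
Cd300ld, chr11:114989837-114990136, minus strand: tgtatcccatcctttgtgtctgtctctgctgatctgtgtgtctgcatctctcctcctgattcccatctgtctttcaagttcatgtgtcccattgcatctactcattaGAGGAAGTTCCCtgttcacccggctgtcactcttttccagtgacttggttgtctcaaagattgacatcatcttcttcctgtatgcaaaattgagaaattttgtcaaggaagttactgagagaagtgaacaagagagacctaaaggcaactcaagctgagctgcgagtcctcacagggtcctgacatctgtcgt
Cd300ld4, chr11:115026884-115027183, minus strand: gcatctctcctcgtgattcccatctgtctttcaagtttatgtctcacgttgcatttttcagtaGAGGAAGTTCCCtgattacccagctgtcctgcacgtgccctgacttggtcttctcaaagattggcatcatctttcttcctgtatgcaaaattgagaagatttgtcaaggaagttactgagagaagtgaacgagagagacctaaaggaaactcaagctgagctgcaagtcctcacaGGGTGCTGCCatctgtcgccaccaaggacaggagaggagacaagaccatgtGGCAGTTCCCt
Cd300a, chr11:114889791-114890090, plus strand: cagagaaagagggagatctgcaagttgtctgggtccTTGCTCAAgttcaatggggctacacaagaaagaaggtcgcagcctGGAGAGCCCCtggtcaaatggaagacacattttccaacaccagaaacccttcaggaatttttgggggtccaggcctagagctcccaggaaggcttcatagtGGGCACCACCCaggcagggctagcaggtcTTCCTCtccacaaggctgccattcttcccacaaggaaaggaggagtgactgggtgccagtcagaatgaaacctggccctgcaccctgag

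The Cd300e window held a single match, to the STAT motif, which 8.3% of all 32851 promoter windows of that length hold. The Cd300ld and Cd300ld4 windows both held a GAGGAA match that overlapped an NF-kB match, and Cd300ld4 held further NF-kB matches. These motifs occur in 28.3% and 50.8% of all windows. The windows of Cd300ld3 and Cd300ld5, not shown, held the same overlapping pair. Cd300ld3 was not called with FL-NfL against vehicle (0.39 ± 0.34), and Cd300ld5 had 0 reads. Of the 50-base stretches in their transcripts, 82.1% and 100% also occur in other genes, as do 93.8% of those of Cd300ld4. The counts of these genes are therefore uncertain, and nothing is read from them about the motifs. The Cd300a window held matches to GAGGAA, TTGCNNAA (10.8% of windows) and the NF-kB motif. Searches for the ETS-IRF composite motif, the interferon-stimulated response element and TGANTCA (AP-1) found no match in the 4 windows shown, where 2.72%, 3.44% and 7.81% of all windows hold one. The aligned windows of Cd300ld and Cd300ld4 were identical at 72.4% of 257 bases. A match is a description of letters and not a bound site. The gene start used for the window lies 138 bases inside the annotated start of Cd300e, 79 inside that of Cd300ld4 and 36 inside that of Cd300ld.

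Cd300e (ENSMUSG00000048498, also named CLM-2) is an activating receptor that in humans pairs with TYROBP and marks monocytes. The gene lies on the minus strand at chr11:115051917-115062177. The level of Cd300e was 10.4, 23.1, 21.1 and 29.2 CPM in FL-NfL replicates 1 to 4. It was 1.26, 6.11, 2.26 and 6.72 CPM in CC-NfL replicates 1 to 4, and 0.955, 0.168, 0.683 and 0.432 CPM in the vehicle libraries in the same order. Every FL-NfL library was above every CC-NfL library, and every CC-NfL library was above every vehicle library. The gene was close to undetected with vehicle, where 22, 4, 17 and 10 reads were counted, against 307, 576, 505 and 615 reads with FL-NfL and 33, 188, 45 and 175 with CC-NfL. The means were 20.97 ± 7.82 CPM with FL-NfL, 4.09 ± 2.73 CPM with CC-NfL and 0.559 ± 0.337 CPM with vehicle.

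The change of Cd300e with FL-NfL against vehicle was 5.22 ± 0.62 on the log2 scale (95% interval 3.87 to 6.56), a fold of 37.2. It was the highest log2 change of all 14687 tested genes, and that of Cd300ld had rank 292. Nothing is read from these ranks, because the members were chosen by these changes. The size of the Cd300e change also rests on 4 to 22 reads per vehicle library. Against vehicle, CC-NfL gave 2.87 ± 0.60 (1.56 to 4.18), a fold of 7.31. The call was not made by edgeR, and it was made without CC-NfL replicate 1 (3.17) and by DESeq2. FL-NfL stood 2.35 ± 0.51 above CC-NfL on the log2 scale (1.24 to 3.45). That call was lost when CC-NfL replicate 1 (2.05), FL-NfL replicate 2 (2.30), CC-NfL replicate 3 (2.16), vehicle replicate 4 (2.35) or FL-NfL replicate 4 (2.16) was left out. Within batches, the log2 difference between FL-NfL and vehicle was 3.34, 6.55, 4.80 and 5.83 in b1 to b4. That between CC-NfL and vehicle was 0.37, 4.64, 1.61 and 3.73, and batch b1 had the smallest difference in each case.

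Cd300ld (ENSMUSG00000034641, CLM-5) signals through Fcer1g in mouse myeloid cells, and it lies on the minus strand at chr11:114982274-114989922. The level of Cd300ld was 85.0, 189, 244 and 168 CPM with FL-NfL. With CC-NfL it was 61.0, 96.6, 128 and 84.2 CPM, and with vehicle 61.5, 60.7, 113 and 60.0 CPM. The groups overlapped: FL-NfL replicate 1 was below vehicle replicate 3. The means were 171.7 ± 66.2 CPM with FL-NfL, 92.4 ± 27.8 CPM with CC-NfL and 73.7 ± 25.9 CPM with vehicle. Cd300ld was higher with FL-NfL than with vehicle in all 4 batches, by 0.47, 1.64, 1.12 and 1.48 on the log2 scale. The fitted change was 1.22 ± 0.32 (0.52 to 1.92). With CC-NfL against vehicle it was 0.33 ± 0.32 (−0.37 to 1.02). Between FL-NfL and CC-NfL it was 0.90 ± 0.32 (0.20 to 1.59), which was called with the replicate number as a block (0.86), by DESeq2 (0.90) and without FL-NfL replicate 1 (1.13).

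Cd300lb (ENSMUSG00000063193, CLM-7) pairs with Tyrobp in the mouse and had the highest level of the 5 in vehicle. It lies on the minus strand at chr11:114922781-114934386. Cd300lb was at 126, 157, 151 and 146 CPM with FL-NfL, at 241, 181, 173 and 159 CPM with CC-NfL and at 224, 229, 199 and 208 CPM with vehicle. Each FL-NfL library was below each library of the other groups, and CC-NfL replicate 1 was the highest of all 12. The mean was 145 ± 13.1 CPM with FL-NfL, 188 ± 36.3 CPM with CC-NfL and 215 ± 13.6 CPM with vehicle. The log2 change was −0.57 ± 0.12 (−0.83 to −0.31) with FL-NfL against vehicle and −0.19 ± 0.12 (−0.45 to 0.07) with CC-NfL against vehicle. FL-NfL against CC-NfL gave −0.38 ± 0.12 (−0.64 to −0.12), a change that was called with the replicate block (−0.36) and by DESeq2.

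Cd300a (ENSMUSG00000034652, CLM-8) is the inhibitory receptor of the family that binds phosphatidylserine and phosphatidylethanolamine. It is the one gene of the cluster on the plus strand, at chr11:114890041-114904654. Its level was 49.3, 34.6, 44.0 and 46.2 CPM with FL-NfL, 84.9, 69.1, 77.4 and 71.0 CPM with CC-NfL and 95.4, 94.5, 97.7 and 97.3 CPM with vehicle. The 3 groups did not overlap at any point, with FL-NfL lowest and CC-NfL between. The means were 43.5 ± 6.36 CPM with FL-NfL, 75.6 ± 7.15 CPM with CC-NfL and 96.2 ± 1.53 CPM with vehicle, whose libraries had the smallest spread. The log2 change was −1.15 ± 0.10 (−1.37 to −0.92) with FL-NfL against vehicle and −0.35 ± 0.10 (−0.57 to −0.13) with CC-NfL against vehicle. Between FL-NfL and CC-NfL it was −0.80 ± 0.10 (−1.02 to −0.58). In b1 to b4 the difference between FL-NfL and vehicle was −0.95, −1.45, −1.15 and −1.08, and that between CC-NfL and vehicle was −0.17, −0.45, −0.33 and −0.46.

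Cd300lf (ENSMUSG00000047798, CLM-1) has inhibitory motifs in its tail and binds phosphatidylserine and ceramide. It lies on the minus strand at chr11:115116214-115133992, within the span of Rab37, which runs on the plus strand and averaged 0.0767 CPM. Cd300lf was at 8.08, 5.51, 11.6 and 5.83 CPM with FL-NfL, at 6.99, 2.70, 5.17 and 2.80 CPM with CC-NfL and at 7.51, 2.43, 5.42 and 1.51 CPM with vehicle. In each group replicates 1 and 3 were above replicates 2 and 4. The means were 7.75 ± 2.81 CPM with FL-NfL, 4.41 ± 2.06 CPM with CC-NfL and 4.22 ± 2.76 CPM with vehicle. FL-NfL exceeded vehicle within each batch, by 0.10, 1.15, 1.09 and 1.89 on the log2 scale, and the fitted change of 0.88 ± 0.47 (−0.14 to 1.90) was not called. With the replicate block it was called at 1.01 ± 0.23, as was FL-NfL against CC-NfL at 0.87, against 0.82 ± 0.47 without the block. The change with CC-NfL against vehicle was 0.06 ± 0.47 (−0.97 to 1.09).

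**Figure D2:**
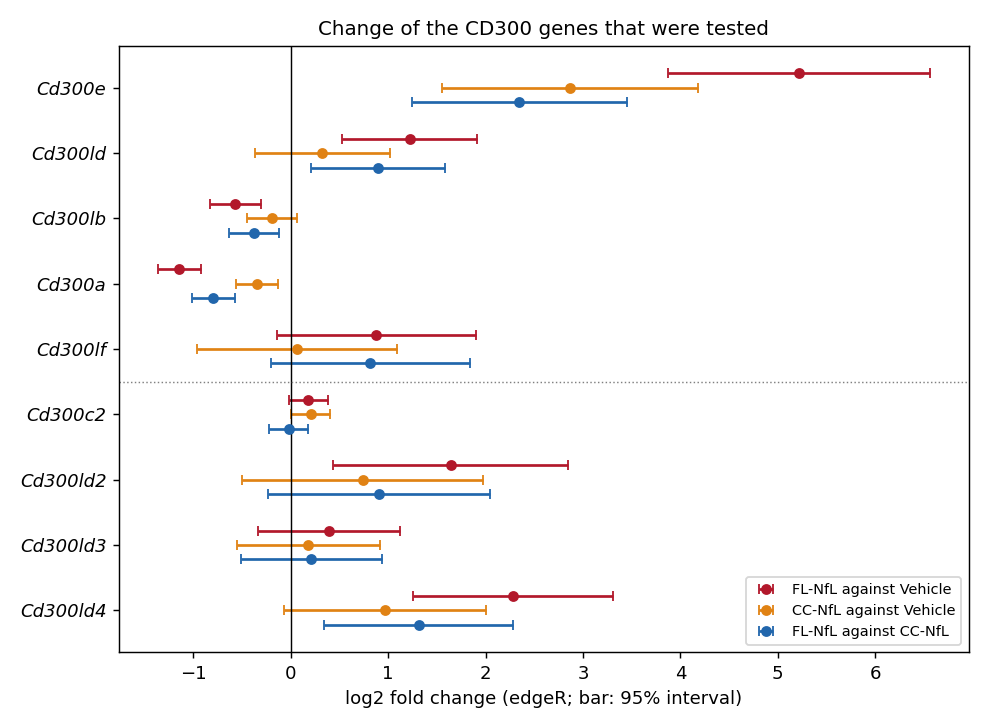
Log2 fold change of the 5 receptors and of the other tested CD300 genes in the comparisons of FL-NfL with vehicle, CC-NfL with vehicle and FL-NfL with CC-NfL, with bars for the 95% interval of edgeR's fit. Cd300e stands at 5.22 and Cd300a at −1.15 with FL-NfL against vehicle, and the intervals of Cd300lf include 0 in all 3 comparisons.

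The comparison between the NfL forms had 2 of 5 members called, Cd300e and Cd300a, where 2.72% of tested genes were called (1.38% higher and 1.34% lower), and this count too comes from a contrast known when the genes were picked. Both comparisons with vehicle share the same 4 vehicle libraries, so their values stand side by side and were not related to each other. Groups did not overlap for 1 member higher (Cd300e) and 2 members lower (Cd300a and Cd300lb) with FL-NfL against vehicle, where 14.5% of tested genes were higher and 11.4% lower without overlap. For CC-NfL against vehicle, 1 member was higher (Cd300e) and 1 lower (Cd300a) without overlap, where the shares of all tested genes were 1.42% and 1.31%. For FL-NfL against CC-NfL the members were 1 higher (Cd300e) and 2 lower (Cd300a and Cd300lb), with shares of 7.46% and 5.02%.

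The receptors also differed in how much of their variation followed the treatment and how much the batch. For Cd300a, treatment held 93.2% of the variance of log2 CPM and batch 3.93%. For Cd300e the shares were 87.6% and 2.19%, and for Cd300lb 70.1% and 6.03%. Cd300ld had 54.6% with treatment and 37.5% with batch. Cd300lf had more with batch (55.5%) than with treatment (32.5%). The treatment shares hold the same group differences by which the members were chosen, so nothing is read from their size.

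The remaining 7 CD300 genes were not members. Cd300c2 (CLM-4), an activating receptor that pairs with Tyrobp and Fcer1g, was at 132.9 ± 12.1 CPM with FL-NfL, 134.9 ± 7.02 CPM with CC-NfL and 117.2 ± 13.8 CPM with vehicle. Its log2 change with FL-NfL against vehicle was 0.18 ± 0.09 (−0.02 to 0.38), with an adjusted p of 0.168 in edgeR's test. Cd300ld4 was at 3.59 ± 1.37 CPM with FL-NfL, 1.44 ± 0.61 CPM with CC-NfL and 0.729 ± 0.377 CPM with vehicle. It rose by 2.28 ± 0.47 with FL-NfL against vehicle (edgeR adjusted p = 0.00575). Against CC-NfL its change was 1.32 ± 0.45 (adjusted p = 0.12), which was called with the replicate block (0.00309) and by DESeq2 (0.0427). Cd300ld2 averaged 1.07 CPM with FL-NfL, 0.56 CPM with CC-NfL and 0.335 CPM with vehicle. Its change of 1.64 ± 0.55 with FL-NfL against vehicle had an edgeR adjusted p of 0.0475, and the call was lost in 10 of 17 alternatives (1.38 to 1.98). Cd300ld3 changed by 0.39 ± 0.34 (edgeR adjusted p = 0.411). Cd300c, Cd300lg and Cd300ld5 were not tested. They had at most 3, 12 and 0 reads in any library.

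Reads of 50 bases can be ambiguous among genes of this family. Of the 50-base words in its exons, Cd300e and Cd300lb shared 0% with any other annotated gene, Cd300lf 2.44%, Cd300a 3.45% and Cd300ld 3.89%. The shares were 7.16% for Cd300c2, 31% for Cd300ld2, 82.1% for Cd300ld3, 93.8% for Cd300ld4 and 100% for Cd300ld5. Cd300ld4 shared 93.8% of its words with Cd300ld5, 75.8% with Cd300ld3 and 1.99% with Cd300ld. The counts of Cd300ld3, Cd300ld4 and Cd300ld5 are uncertain for this reason. With the counts of the Cd300ld genes added together, FL-NfL against vehicle gave 1.22 ± 0.32. That sum is nearly all Cd300ld (171.7 CPM with FL-NfL, against 3.59 CPM for Cd300ld4 and 2.32 CPM for Cd300ld3). It therefore follows Cd300ld and cannot settle the uncertain counts.

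To compare levels between genes, CPM was divided by the exon length in kilobases. The orders below cover the 5 members and Cd300c2 alone. Of the genes left out, Cd300ld3 (2.06 CPM per kb with vehicle) and Cd300ld4 (0.856) were above Cd300lf in each group. Cd300ld3 was also above Cd300e with CC-NfL (2.34) and vehicle. Cd300ld4 (0.856) and Cd300ld2 (0.365) were above Cd300e with vehicle. With vehicle, Cd300c2 was highest (91.9 CPM per kb), followed by Cd300lb (73.7), Cd300ld (27.9), Cd300a (20.3), Cd300lf (0.819) and Cd300e (0.268). With FL-NfL the order was Cd300c2 (104), Cd300ld (64.9), Cd300lb (49.7), Cd300e (10.0), Cd300a (9.19) and Cd300lf (1.51). With CC-NfL it was Cd300c2 (106), Cd300lb (64.5), Cd300ld (34.9), Cd300a (16.0), Cd300e (1.96) and Cd300lf (0.857). With FL-NfL the libraries of Cd300c2 and Cd300ld, of Cd300ld and Cd300lb, and of Cd300e and Cd300a overlapped. The overlapping neighbours were Cd300e and Cd300lf with CC-NfL, and Cd300lf and Cd300e with vehicle.

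The sum over all 12 CD300 genes was 248 ± 41.7 CPM per kb with FL-NfL, 229 ± 13.5 with CC-NfL and 218 ± 17.8 with vehicle, differences within the spread of the FL-NfL libraries. That spread came from FL-NfL replicate 1, at 187 CPM per kb. FL-NfL replicates 2 to 4, at 261, 282 and 261, were above every CC-NfL and vehicle library (at most 241). Within that sum, Cd300ld held 25.4% with FL-NfL, 15.2% with CC-NfL and 12.6% with vehicle. Cd300lb held 20.3%, 28.2% and 34.0% in the same groups, and Cd300a 3.85%, 6.98% and 9.35%. The share of Cd300e was 3.97% with FL-NfL, 0.874% with CC-NfL and 0.121% with vehicle. Cd300c2 held the largest share in each group, at 42.6% with FL-NfL, 46.3% with CC-NfL and 42.0% with vehicle. The ratio of Cd300ld to Cd300a per kb was 3.09 to 9.95 with FL-NfL, 1.29 to 2.95 with CC-NfL and 1.10 to 2.06 with vehicle. Nothing is read from the higher ratio with FL-NfL, because both genes were chosen with their opposite changes known.

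**Figure D3:**
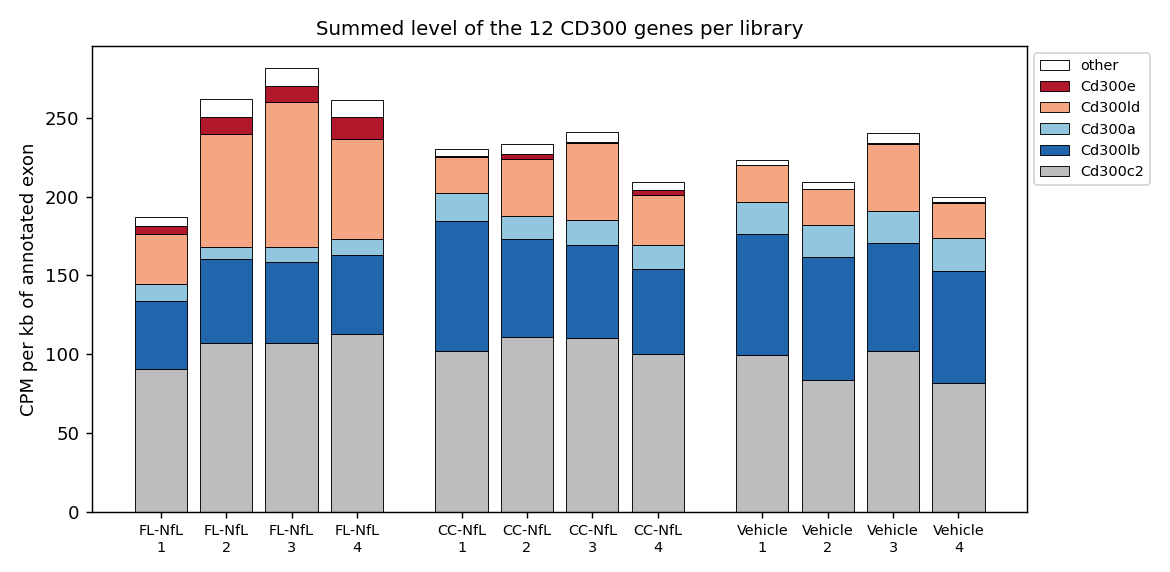
Summed level of the 12 CD300 genes in CPM per kilobase of exon, as 1 stacked bar per library of FL-NfL, CC-NfL and vehicle, with the genes beyond the 5 named ones joined as other. Cd300ld takes 17.2% to 32.8% of a bar with FL-NfL and 10.4% to 17.7% with vehicle, and the band of Cd300e, 2.67% to 5.35% of a bar with FL-NfL, is too thin to see with vehicle.

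Of the 12 genes, 11 form a cluster of 244 kb at chr11:114890041-115133992, in the order Cd300a, Cd300lb, Cd300c, Cd300ld, Cd300c2, Cd300ld2, Cd300ld4, Cd300ld5, Cd300ld3, Cd300e and Cd300lf. Cd300lg lies apart at chr11:102041509-102055620. Cd300a and Cd300lb, the members that were lower with FL-NfL, lie side by side at one end, and Cd300ld, Cd300e and Cd300lf follow further along. Of 10 other genes within 100 kb, 6 were tested. With FL-NfL against vehicle, Tmem104, a membrane protein, rose by 0.57 ± 0.13 (201 CPM against 135 CPM, edgeR adjusted p = 0.00782). Gprc5c, an orphan G-protein-coupled receptor, fell by 2.80 ± 0.62 on the log2 scale (0.148 CPM against 1.07 CPM, edgeR adjusted p = 0.00801). The other 4 were not called: Slc9a3r1 changed by −0.01, Kif19a by 0.15, Nat9 by 0.38 and the pseudogene Gm11699 by −1.52, with edgeR adjusted p-values of 0.923, 0.749, 0.124 and 0.0852. With the replicate block, Nat9 (0.0419) and Gm11699 (0.0175) were also called. Gm11699 lies inside Cd300lb on the opposite strand and Nat9 overlaps Tmem104 on the opposite strand. The strand setting of the counting is not given, so reads of such pairs, and of Cd300lf and Rab37, cannot be told apart with certainty.

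**Figure D4:**
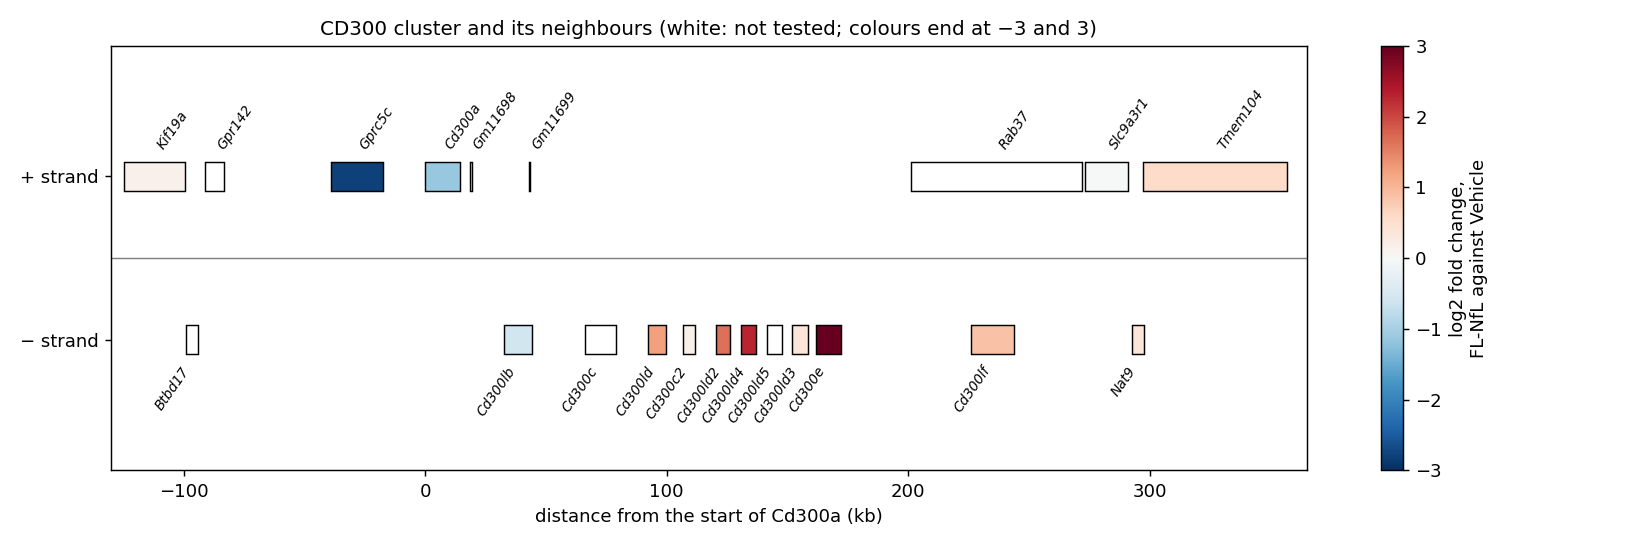
The CD300 cluster and its neighbours drawn to scale in kilobases from the start of Cd300a, by strand, with the log2 fold change of FL-NfL against vehicle as a colour that saturates at −3 and 3, white for genes not tested, and Gm11699 too narrow to show its colour. Cd300a (−1.15) and Cd300lb (−0.57) are neighbours at one end, and Cd300ld (1.22) and Cd300e (5.22) lie further along on the minus strand.

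The partners of the receptors inside the cell were read from a list of activating adaptors and proximal kinases. This list and the others below, 4 in all, were chosen with earlier results of these data known. Their counts, medians and p-values are therefore given as a description. With FL-NfL against vehicle, 9 of its 18 tested genes rose and 1 fell, where 14.0% of all tested genes rose and 10.9% fell. The list's median log2 change was 0.30, where that of all tested genes was −0.02. Fcer1g, the adaptor of Cd300ld, averaged 1231 CPM with FL-NfL and 655 CPM with vehicle, a log2 rise of 0.91 ± 0.14 (edgeR adjusted p = 0.00136). Lcp2, an adaptor of the same pathway, rose by 0.70 ± 0.12 (edgeR adjusted p = 0.00192). Fyn, a Src-family kinase, fell by 0.41 ± 0.12 (edgeR adjusted p = 0.0247), a call that was lost without FL-NfL replicate 1 (−0.33), vehicle replicate 2 (−0.34) or vehicle replicate 4 (−0.34). Tyrobp, the adaptor of Cd300lb, named after its values were seen, averaged 1023 CPM with FL-NfL and 1111 CPM with vehicle, a change of −0.12 ± 0.07 (edgeR adjusted p = 0.223).

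Of 11 tested inhibitory phosphatases and adaptors, 4 rose with FL-NfL against vehicle, where 14.0% of all tested genes rose, and the median change was 0.24. Cbl was the one gene with a negative change (−0.06 ± 0.07, edgeR adjusted p = 0.528). With the replicate block 8 rose, where that fit called 3148 of all 14687 tested genes higher and 3284 lower. Ptpn6 (SHP-1), a phosphatase recruited by Cd300a and Cd300lf, averaged 625 CPM with FL-NfL and 427 CPM with vehicle (0.55 ± 0.13, edgeR adjusted p = 0.00923). Ptpn11 (SHP-2) rose by 0.23 ± 0.05 (0.00802) and Ubash3b by 0.27 ± 0.06 (0.00969).

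Genes of lipid ligand exposure and ceramide moved both ways, with 4 of 15 higher, 3 lower and a median of 0.01, where 14.0% of all tested genes were higher and 10.9% lower. Xkr8, a scramblase that exposes phosphatidylserine, rose by 0.64 ± 0.11 (edgeR adjusted p = 0.00217), and the ceramide synthase Cers2 by 0.34 ± 0.08 (0.0109). Il4ra, a cytokine receptor subunit kept in this list for its link with Cd300lf in mouse cells, rose by 0.74 ± 0.19 (0.0145). Sgms1, which turns ceramide into sphingomyelin, fell by 0.62 ± 0.11 (edgeR adjusted p = 0.00318). Cers5 fell by 0.46 ± 0.14 (0.029), a call lost without any 1 of 5 libraries: vehicle replicates 1, 3 and 4 and FL-NfL replicates 2 and 4 (−0.36 to −0.46).

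Of 20 other paired receptors of myeloid cells, 6 rose and 1 fell with FL-NfL against vehicle, with a median of 0.53, against 14.0% and 10.9% of all tested genes. The number that rose was 2 without vehicle replicate 2, FL-NfL replicate 3 or vehicle replicate 4, and 10 rose and 3 fell with the replicate block. The activating receptor Pilrb1 averaged 12.4 CPM with FL-NfL and 2.31 CPM with vehicle (2.42 ± 0.54, edgeR adjusted p = 0.00801). Sirpb1a averaged 14.3 CPM with FL-NfL and 3.61 CPM with vehicle (1.98 ± 0.55, edgeR adjusted p = 0.0225). That call was lost without vehicle replicate 1 (1.99), vehicle replicate 2 (1.78), FL-NfL replicate 3 (1.55) or vehicle replicate 4 (1.77). Milr1, an inhibitory receptor, rose by 0.41 ± 0.10 (0.0128). Trem2, a lipid receptor that signals through Tyrobp, was the gene that fell, to 220 CPM with FL-NfL against 677 CPM with vehicle (−1.62 ± 0.19, edgeR adjusted p = 0.000453).

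With CC-NfL against vehicle, no gene of the 4 lists was called by edgeR, and the list medians were 0.15, 0.10, 0.00 and 0.36 in the order above. The genes with the smallest p were Fcer1g (0.39 ± 0.14, adjusted p = 0.661), Ptpn6 (0.37 ± 0.13, 0.653), Ano6 (0.15 ± 0.06, 0.672) and Trem2 (−0.48 ± 0.19, 0.668). Between FL-NfL and CC-NfL, Xkr8 was called higher (0.51 ± 0.11, edgeR adjusted p = 0.034) and Trem2 lower (−1.14 ± 0.19, edgeR adjusted p = 0.0139). The Xkr8 call was lost without CC-NfL replicate 1 (0.51), FL-NfL replicate 2 (0.54), CC-NfL replicate 3 (0.45), FL-NfL replicate 4 (0.51) or CC-NfL replicate 4 (0.51), and the Trem2 call without FL-NfL replicate 2 (−1.01) or 4 (−1.06). With the replicate block, 1321 of all 14687 tested genes were called higher and 1485 lower in that comparison. Of the list genes, 8 of 18 activating genes were then higher and 1 lower, 2 of 11 inhibitory genes higher, 3 of 15 lipid genes higher and 3 lower, and 2 of 20 other receptors higher and 1 lower.

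The genes nearest to each member were found by the root mean square difference of centred log2 CPM over the 12 libraries, among genes of at least 5 CPM on average. This measure reads the same treatment differences as the changes above. For Cd300e the nearest were the chemokine Ccl5 (0.536), the sialic-acid receptor Siglece (0.587) and the SLAM-family receptor Slamf9 (0.749), against an SD of 2.24 for Cd300e itself. Ccl5 averaged 745 CPM with FL-NfL, 182 CPM with CC-NfL and 26.6 CPM with vehicle. For Cd300ld they were Nod1 (0.189), a sensor of bacterial peptides, I830077J02Rik (0.208) and the receptor Cd244a (0.217), against an SD of 0.671. For Cd300a they were P3h3 (0.089), Zfp113 (0.117) and Zfp395 (0.125), against 0.501. For Cd300lb they were Bcl2l11 (0.088), which encodes the death-promoting protein Bim, Cebpg (0.089) and Dennd4c (0.107), against 0.282. For Cd300lf they were the cytokine-signalling inhibitor Socs3 (0.310), Procr (0.336) and Pstpip1 (0.396), against 0.803. CD300 genes were left out of that search. Between members, the smallest difference was that of Cd300a and Cd300lb (0.318). The member nearest to Cd300ld was Cd300lf, and the reverse (0.751), and the one nearest to Cd300e was Cd300ld (1.77). Each of these differences was larger than those of the genes named above for the same member.

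The culture carried the markers of microglia. Their 10 listed genes summed to 6830 to 7070 CPM with FL-NfL, 7760 to 8400 CPM with CC-NfL and 7730 to 9080 CPM with vehicle, and 1 rose and 4 fell with FL-NfL against vehicle. Genes of the border-associated macrophage list summed to 3200 to 3500 CPM with FL-NfL, 3380 to 4640 CPM with CC-NfL and 3670 to 5520 CPM with vehicle. Of 7 tested genes 1 rose and 3 fell with FL-NfL. Most of that sum was Stab1 (2766 CPM with vehicle), Mrc1 (805) and Ms4a7 (589), followed by Pf4 (48.3) and F13a1 (35.0). Lyve1 averaged at most 0.0744 CPM, Cd163 at most 0.63 CPM and Cd209f at most 8.74 CPM in any group. CD300 receptors are carried by other myeloid cells, whose markers were low. The 8 monocyte markers summed to 2.13 to 6.40 CPM with FL-NfL, 2.53 to 4.77 CPM with CC-NfL and 2.38 to 6.15 CPM with vehicle, with Chil3 at 0 in all libraries and neither of 2 tested genes called. The 8 neutrophil markers stayed at 0.161 to 1.87 CPM, 0.195 to 1.26 CPM and 0.0838 to 1.09 CPM in the same groups, with S100a9, Retnlg and Mpo at 0. Mast cell markers summed to 4.92 to 7.45 CPM with FL-NfL, 1.86 to 7.41 CPM with CC-NfL and 2.45 to 6.22 CPM with vehicle, with Mcpt4, Tpsb2, Cma1, Fcer1a and Ms4a2 at 0 and 1 of 2 tested genes called higher with FL-NfL against vehicle. Dendritic cell markers summed to 3.94 to 7.24 CPM, 4.50 to 6.77 CPM and 3.78 to 5.98 CPM, with Cd209a at 0 and 1 of 3 tested genes called higher with FL-NfL.

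Markers of non-myeloid cells were also read. Fibroblast markers summed to 68.3 to 520 CPM with FL-NfL, 135 to 1490 CPM with CC-NfL and 241 to 1400 CPM with vehicle, and none of 6 tested genes was called. Nearly all of that sum was Fn1, which averaged 220, 511 and 608 CPM in the same groups. Every other gene of that list, collagens included, averaged at most 1.36 CPM in any group. Lymphocyte markers were at most 0.167, 0.325 and 0.521 CPM, with 5 of 8 at 0. Endothelial markers summed to 38.2 to 49.5 CPM with FL-NfL and 46.1 to 101 CPM with vehicle, astrocyte markers to 23.7 to 37.0 CPM and 25.3 to 56.8 CPM, oligodendrocyte-lineage markers to 93.8 to 119 CPM and 121 to 179 CPM, and neuron markers to 6.74 to 20.3 CPM and 11.9 to 44.0 CPM. With FL-NfL against vehicle, 1 endothelial gene rose and 1 fell, 1 oligodendrocyte-lineage gene rose, 2 neuron genes fell and 0 of 8 astrocyte genes were called. The part of these differences in the CD300 values was not tested.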

How the data were processed

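Per the labels' protocols, polyadenylated RNA was prepared with a strand-keeping kit and sequenced as single reads of 50 bases. Per the submitters' processing notes, GSNAP and GRCm38 were used. The sources used here do not give its version, the counter, the strand option or the gene models. The authors deposited raw read counts per Ensembl gene, 20162427 to 31048044 per library, which limits the precision of low counts. Of 52636 identifiers, 99.7% had a symbol in GENCODE M21.

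Genes were kept with filterByExpr (14687 kept with 99.9% of counts, 37949 removed), scaled with TMM factors and fitted in edgeR 4.0.16 (R 4.3.3) as 3 groups with 9 residual degrees of freedom. Groups were compared with the two-sided quasi-likelihood F test and Benjamini-Hochberg adjustment over all tested genes. SEs come from the F statistic, and 95% intervals from the t quantile. The code was tested on simulated data. Log2 CPM used a prior count of 2. The 19 alternatives were upper-quartile and RLE scaling, 2 other filters, DESeq2 1.42.0, the replicate number as a block, leaving out each of 12 libraries, and the Cd300ld genes summed, the last chosen after seeing the data.

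Labelled batches make the replicate numbers pair the samples: after the group means were removed, same-numbered libraries correlated across genes at 0.31 to 0.73 (12 of 12 pairs over 0.1), and others at −0.46 to 0.44. The main fit left this pairing out, and its SEs and intervals hold the batch differences. With the replicate block, the SE with FL-NfL against vehicle was 0.15 in place of 0.32 for Cd300ld. For Cd300lb it was 0.11 in place of 0.12.

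The members, the 4 gene lists and the marker lists were chosen with earlier results of these data known. All CD300 genes are named. So are, from each list and comparison against vehicle, up to 3 called genes per direction with the smallest p, or, with none called, the gene of smallest p. Some list genes chosen this way are not reported here. Tested genes within 100 kb of the cluster and the 3 nearest profiles per member are also named. That window was drawn around the cluster, without Cd300lg, which lies apart. Lilrb3, on the list of other paired receptors, was not analysed here.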

Additional observations from a re-analysis of the deposited data

Results flagged for a closer look

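In 27 groups of 4 libraries, the 3 groups for each of the 9 tested CD300 genes, 3 held a library far from the others by Dixon's test, which flags about 1 group in 20 by chance. Cd300ld in vehicle replicate 3 was at 113 CPM, with the nearest vehicle library at 61.5 CPM. Cd300ld3 in FL-NfL replicate 1 was at 1.36 CPM, with the nearest FL-NfL library at 2.53 CPM. Cd300ld3 in CC-NfL replicate 1 was at 1.53 CPM, with the nearest CC-NfL library at 2.14 CPM.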

How the results depend on the processing

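Over 19 alternatives, the changes with FL-NfL against vehicle kept their direction and call for Cd300a (−1.21 to −1.05), Cd300e (4.92 to 5.59), Cd300lb (−0.63 to −0.51) and Cd300ld (1.00 to 1.50). The call of Cd300ld was close to the threshold of 0.05 without vehicle replicate 1, 2 or 4 or without FL-NfL replicate 3. With the replicate block, 5 members were called in place of 4, and 4 were called whichever library was left out. With CC-NfL against vehicle, 1 member was called by DESeq2 and 0 to 1 without single libraries. With FL-NfL against CC-NfL, 4 were called by DESeq2, 5 with the replicate block and 1 to 3 without single libraries. The change of Cd300lf with CC-NfL against vehicle reversed to −0.26 without CC-NfL replicate 1, −0.13 without vehicle replicate 2, −0.02 without CC-NfL replicate 3 and −0.22 without vehicle replicate 4, and was −0.26 to 0.49 over all left-out libraries. The cause was not tested.

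Genes called with FL-NfL against vehicle numbered 3656, with the replicate block 6432, and 2384 (without FL-NfL replicate 2) to 4084 without single libraries. It was 2417 without vehicle replicate 4. The higher share of the calls was 56.4%, and 45.8% with upper-quartile scaling. With CC-NfL against vehicle the count was 0, against 23 by DESeq2, 2 with the replicate block and 0 to 26 without single libraries (26 without CC-NfL replicate 1). Between the NfL forms it was 399, against 1397 by DESeq2, 2806 with the replicate block and 32 to 601 without single libraries, the lowest being 32 without FL-NfL replicate 2, 37 without FL-NfL replicate 4, and 90 without CC-NfL replicate 1 or 3. Depth limits Cd300e in vehicle, where 4 to 22 reads were counted.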
